A study of Mus musculus with 8 samples.

Results

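The fibroblast growth factor (FGF) ligands and receptors of cultured brain pericytes were examined with and without TGF-β1. The 10 genes were taken by their symbols from the 54532 gene identifiers of the count files, and comprise the ligands *Fgf1*, *Fgf2*, *Fgf7*, *Fgf10*, *Fgf18* and *Fgf21*, the signaling receptors *Fgfr1*, *Fgfr2* and *Fgfr3*, and the receptor-like gene *Fgfrl1*. The cells were primary wild-type (WT) pericytes from mouse brain, sampled at 48 h as 4 cultures with vehicle (replicates 1 to 4) and 4 with TGF-β1 at 5 μg/mL (replicates 5 to 8). Per the study's methods, both groups came from mixed brain digests that were passaged and then kept in a pericyte medium with serum and added growth factors. The methods describe isolates that each received vehicle and TGF-β1, whereas no label ties a vehicle culture to a treated one. The cultures were therefore compared as unpaired groups, and p-values measure the spread between these cultures alone.

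FGFs are secreted proteins that bind receptor tyrosine kinases together with heparan sulfate chains on the cell surface. The receptors pass the signal on through the adaptor FRS2, GRB2 and SOS to Ras and the ERK kinases, which induce ETV transcription factors and feedback inhibitors such as the Sproutys and DUSP6. In vessels, FGF2 is known as a mitogen for endothelial and mural cells, while FGF7 and FGF10 are classical mesenchymal ligands for the epithelial splice form of FGFR2.

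With TGF-β1, *Fgf2* rose 4.00-fold, the largest change among the 10 genes, whereas *Fgfr2* fell to 0.626 of its vehicle level. *Fgfr1*, per length by far the most abundant of the receptors, rose 1.19-fold, and *Fgf7*, per length the most abundant of the ligands, rose 1.27-fold. The decoy-type receptor *Fgfrl1* rose 1.76-fold, and *Fgf10*, *Fgf18* and *Fgf21* also rose, from low levels. *Fgfr3* fell to 0.768 of its vehicle level. The remaining gene, *Fgf1*, did not pass the test. Thus 7 of the 10 genes rose and 2 fell at the threshold of 0.05, after Benjamini-Hochberg adjustment of edgeR's quasi-likelihood p over 22544 genes, in a background where 41.3% of all genes tested were called (20.9% higher and 20.3% lower). For 9 of the 10, including *Fgf1*, the TGF-β1 and vehicle cultures did not overlap, as was the case for 37.9% of all genes tested. The median log2 fold change was 0.41 over the 10 genes and -0.01 over all genes tested. All 10 passed the filter on low expression, but *Fgf21* did so through the TGF-β1 cultures alone, so its passing is tied to its difference. Without it, 8 of 9 were called, whereas the median and the count of genes without overlap given above include it. Only *Fgf2* also exceeded the study's second threshold, an absolute log2 fold change over 1.5, which 2.00% of all genes tested did. In bulk RNA, fewer cells that express a gene and less RNA per cell cannot be told apart.

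Levels are given as CPM, which are counts brought to a common library size with edgeR's TMM factors. Library totals ranged from 45255235 to 47651397 counts and did not differ between the groups beyond their spread (exact permutation test, two-sided, p = 0.857), and 3 counts corresponded to 0.0631 to 0.0658 CPM. Counts between 1 and 20 were even numbers in 68.5% to 70.2% of cases, so the number of independent fragments may be lower than the counts. Of 6 TGF-β response genes listed as a check of the treatment, 5 rose and *Tgfbi* fell. Of the 12 pericyte markers, 4 rose, 2 fell and 3 were not called, and *Kcnj8*, *Abcc9* and *Vtn* were too low to be tested (median log2 fold change -0.02). *Pdgfrb* rose from 202 to 291 CPM and *Cspg4* from 82.9 to 169 CPM, while *Rgs5* fell from 8.62 to 2.13 CPM and *Anpep* from 40.5 to 30.1 CPM, and *Des* was at 0.685 and 0.623 CPM. Their summed level was 578 to 597 CPM with vehicle and 756 to 785 CPM with TGF-β1. Of 10 fibroblast markers, 4 rose, 3 fell, 2 were not called and *Lum* was too low to be tested (median 0.07). Their sum, 4657 to 4882 CPM against 6648 to 6938 CPM with TGF-β1, was mostly that of *Col1a1*, *Col1a2* and *Col3a1*, which rose, whereas *Ly6a*, *Dpt* and *Dcn* fell. Of 10 endothelial markers, 2 rose and 1 fell, with *Tie1*, *Cldn5*, *Emcn* and *Erg* too low to be tested, and their sums overlapped between the groups (473 to 486 CPM against 475 to 501 CPM with TGF-β1, most of it *Cdh5*). Of 8 astrocyte markers, *Aldh1l1* and *Slc1a3* rose and *S100b* and *Slc1a2* fell, and *Gja1*, not called, made up most of their sum of 251 to 263 CPM with vehicle and 227 to 239 CPM with TGF-β1, while *Aqp4* was at 0 in the vehicle cultures. Of 10 macrophage and microglia markers, only *Csf1r* was called, higher, with *Adgre1* and *C1qa* too low to be tested and sums of 109 to 114 CPM against 109 to 111 CPM with TGF-β1, most of it *Tmem119*. No marker list was at 0 as a whole, and the part of other cell types in the changes below was not tested.

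**Figure D1:**
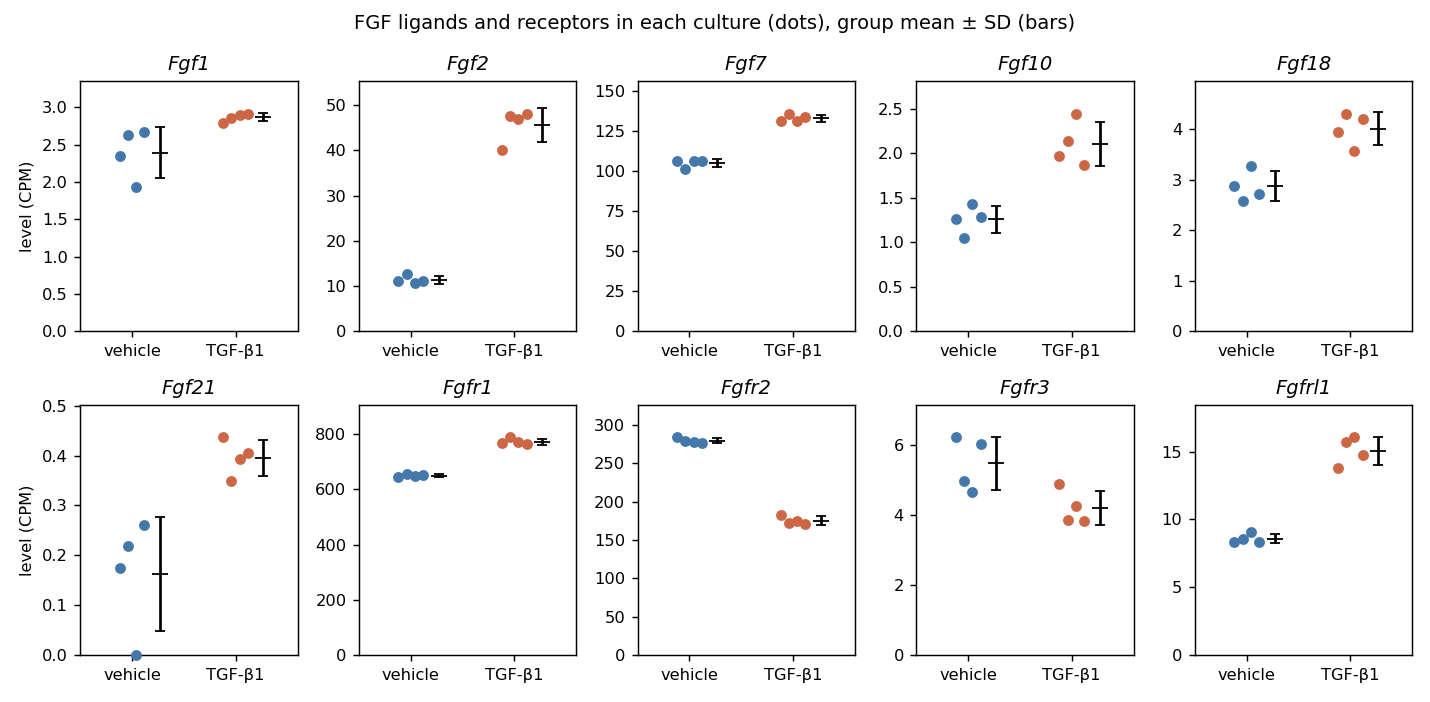
Level of each of the 10 genes in CPM (y axis, linear, starting at 0) in the 4 vehicle cultures (blue) and the 4 TGF-β1 cultures (orange), 1 dot per culture, with the group mean ± SD as a black bar beside them. The groups did not overlap for 9 of the genes, and for *Fgfr3* the highest TGF-β1 culture (4.89 CPM) lay above the lowest vehicle culture (4.67 CPM).

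Sequences just upstream of the transcription start are shown for 3 genes, chosen after their values were seen: *Fgf7* as the most abundant ligand, *Fgf21* as the promoter with the most SMAD words, and *Fgfr2* as the largest fall. Each is the 250 bases before the start annotated by RefSeq on GRCm38.p6, and capitals mark the SMAD word CAGAC or its reverse complement GTCTG, the short motif that SMAD3 and SMAD4 are known to contact.
*Fgf7*, chr2:126034408-126034657, plus strand: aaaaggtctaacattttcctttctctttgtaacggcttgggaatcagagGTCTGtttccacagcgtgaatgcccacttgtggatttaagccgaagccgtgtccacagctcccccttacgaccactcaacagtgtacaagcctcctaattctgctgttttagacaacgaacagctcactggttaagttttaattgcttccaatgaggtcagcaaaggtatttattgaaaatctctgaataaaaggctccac
*Fgf21*, chr7:45615491-45615740, minus strand: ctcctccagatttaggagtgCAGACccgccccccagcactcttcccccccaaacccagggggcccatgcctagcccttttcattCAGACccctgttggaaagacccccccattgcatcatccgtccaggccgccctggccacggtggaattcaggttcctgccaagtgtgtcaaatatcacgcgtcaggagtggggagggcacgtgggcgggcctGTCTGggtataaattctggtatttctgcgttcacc
*Fgfr2*, chr7:130266809-130267058, minus strand: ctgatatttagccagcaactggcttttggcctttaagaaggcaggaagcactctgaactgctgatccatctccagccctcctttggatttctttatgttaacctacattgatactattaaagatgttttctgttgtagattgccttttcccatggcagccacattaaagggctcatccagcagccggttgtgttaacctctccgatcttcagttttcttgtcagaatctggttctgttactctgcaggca
Such windows were available for 8 of the 10 genes, and that of *Fgf2* lies wholly within exons of GENCODE M21, so it is upstream of the RefSeq start alone. Those of *Fgfr2*, *Fgf10* and *Fgfrl1* hold no exonic bases of the gene but lie inside its GENCODE span. They are thus upstream of a RefSeq start and not of the whole gene model. Of the *Fgfr3* windows, the first has 50 exonic bases and the other lies inside the gene span. *Fgf7* and *Fgf2* each had 1 match to CAGAC or GTCTG, *Fgf18* had 2, *Fgf21* had 3, and *Fgfr2*, *Fgfr3*, *Fgfrl1* and *Fgf10* had none. The word is common: 42.2% of the 32851 windows of all genes held it on either strand. None of the 8 genes held the AP-1 word TGAGTCA or its reverse complement TGACTCA, which 4.46% of all windows held. A match is a description of letters, and its absence says only that the word is not in this window.

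*Fgf2* encodes a ligand of broad receptor range that leaves cells without a classical secretion signal. It lies on chromosome 3 of GRCm38, from 37348346 to 37410108 (ENSMUSG00000037225). Its level was 11.2, 12.7, 10.6 and 11.2 CPM in vehicle replicates 1 to 4 and 40.1, 47.65, 47.0 and 48.1 CPM in TGF-β1 replicates 5 to 8. Every treated culture was thus at least 27.4 CPM above the highest vehicle culture, and replicate 5 was the lowest of the treated ones. The group means were 11.4 ± 0.900 and 45.7 ± 3.78 CPM (SD, n = 4 each), and the log2 fold change was 2.00 (standard error (SE) 0.06, 95% interval 1.88 to 2.12, adjusted p = 8.78e-24 by edgeR). By absolute log2 fold change it ranked 185th of the 22544 genes tested. On the opposite strand, exons of *Nudt6* share 640 bases with those of *Fgf2* (9.44% of its exonic length), and the strand setting of the counting is not given in the sources used here. *Nudt6* itself had 79 to 82 counts per vehicle culture and 63 to 98 per TGF-β1 culture, with a log2 fold change of -0.06 (adjusted p = 0.803). *Fgf2* had 503 to 579 counts per vehicle culture and 1837 to 2262 per TGF-β1 culture. The part of reads from the shared bases in the difference was not tested.

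*Fgf7*, or keratinocyte growth factor, lies on chromosome 2 from 126034658 to 126091185 (ENSMUSG00000027208), and none of its exonic bases overlap another gene. It was at 106, 101, 106 and 106 CPM with vehicle and at 131, 136, 131 and 134 CPM with TGF-β1. The spread within each group was small, and the lowest treated culture was 24.6 CPM above the highest vehicle culture. The log2 fold change of 0.34 (SE 0.03, edgeR adjusted p = 1.04e-14) was modest in size, at the 70.6th percentile of absolute changes among genes tested. Its level was at the 90.4th percentile.

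*Fgf10*, of the same ligand subfamily as *Fgf7*, lies on chromosome 13 from 118669791 to 118792115. Per length it was far less abundant than *Fgf7* (0.273 against 32.3 CPM per kilobase of exon with vehicle). It was counted 48 to 68 times per vehicle culture and 88 to 112 times per TGF-β1 culture. In CPM these were 1.26, 1.05, 1.43 and 1.28 against 1.96, 2.13, 2.44 and 1.87. All treated cultures were above all vehicle cultures, with a log2 fold change of 0.74 (SE 0.16, 95% interval 0.41 to 1.07, adjusted p = 0.000229 by edgeR). The interval of *Fgf10* lay above that of *Fgf7* (0.29 to 0.40). The difference between the changes of these genes was not tested.

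*Fgf18*, a ligand of the FGF8 subfamily best known from bone and lung development, lies on chromosome 11 from 33117430 to 33147400. It rose from 2.87 ± 0.300 to 4.01 ± 0.328 CPM (SD, n = 4 each), with single cultures at 2.89, 2.59, 3.28 and 2.73 CPM with vehicle and at 3.95, 4.31, 3.58 and 4.21 CPM with TGF-β1. The groups were 0.296 CPM apart at their nearest cultures. On the log2 scale it rose by 0.48 (SE 0.12, adjusted p = 0.000759 by edgeR).

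*Fgf1*, which can bind every FGF receptor, lies on chromosome 18 from 38838673 to 38929472. It was at 2.34, 2.63, 1.94 and 2.66 CPM with vehicle and at 2.79, 2.85, 2.90 and 2.92 CPM with TGF-β1. The treated cultures were close to each other (SD 0.0555 CPM) and all above the vehicle cultures (SD 0.338 CPM). The log2 fold change of 0.26 had a SE of 0.13 and an adjusted p of 0.118 by edgeR, with a 95% interval of -0.01 to 0.53. The interval also holds the estimate for *Fgf7* (0.34). *Fgf1* had 92 to 137 counts per culture.

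*Fgf21* encodes an endocrine FGF that signals through FGF receptors paired with β-klotho. It lies on chromosome 7 from 45613886 to 45615490 and had the fewest counts of the 10 genes. Its counts were 8, 10, 0 and 12 with vehicle and 20, 16, 18 and 19 with TGF-β1. The count of 0, in vehicle replicate 3, allows up to 0.0631 CPM by 3 counts, and such limits cover counting error only. They take each count as an independent fragment, so the true limit is higher if fragments are fewer than counts. The log2 fold change was 1.27 (SE 0.45, 95% interval 0.37 to 2.17, adjusted p = 0.0193 by edgeR). Without vehicle replicate 3 it was 0.86 with an adjusted p of 0.0948, so the call rests on that culture. *Klb*, which encodes β-klotho, was at 0.863 ± 0.200 CPM with vehicle and 0.798 ± 0.263 CPM with TGF-β1 (SD, n = 4 each, adjusted p = 0.754 by edgeR).

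**Figure D2:**
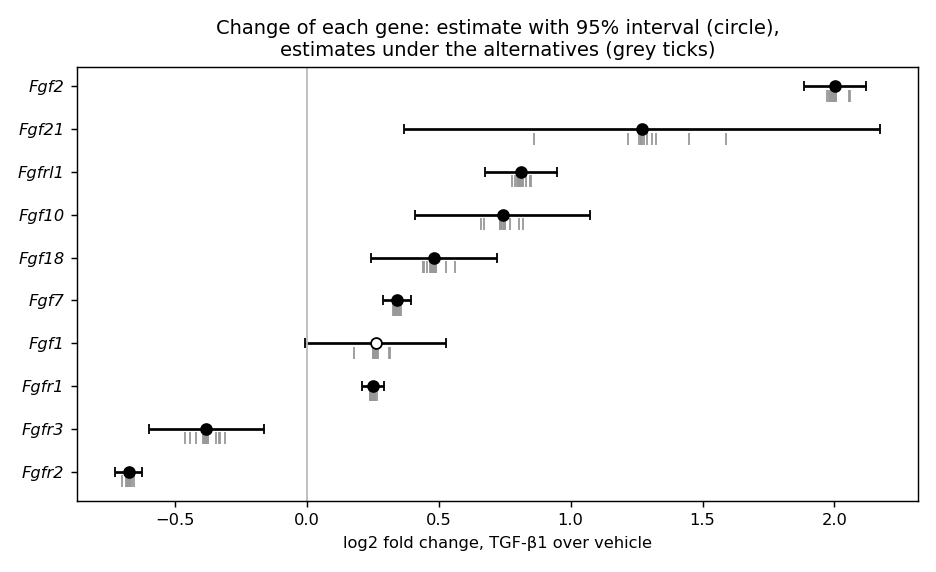
Log2 fold change of each of the 10 genes (x axis, TGF-β1 over vehicle) with its 95% interval. Filled circles had an adjusted p under 0.05, the open circle (*Fgf1*) did not, and grey ticks give the estimates with another tool, scaling, filter or culture left out, which are most spread for *Fgf21* (0.86 to 1.59).

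*Fgfr1*, the main FGF receptor of many mesenchymal cells, lies on chromosome 8 from 25513654 to 25575718 (ENSMUSG00000031565). It was at 643, 654, 648 and 651 CPM with vehicle and at 767, 788, 770 and 764 CPM with TGF-β1. Replicates differed by little (SD 4.74 and 10.8 CPM), and the groups were 109.9 CPM apart at their nearest cultures. The log2 fold change was therefore precise though small, at 0.25 (SE 0.02, adjusted p = 8.59e-14 by edgeR). The level was at the 99.6th percentile of genes tested. *Gm16159*, an antisense gene that shares 164 exonic bases with *Fgfr1* (1.66% of its exonic length), was at 16.0 CPM with vehicle and 19.7 CPM with TGF-β1, and its log2 fold change was 0.30 (adjusted p = 7.93e-05 by edgeR).

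*Fgfr2* lies on the minus strand of chromosome 7, where its annotated gene model runs from 130162451 to 133123350 (ENSMUSG00000030849) because of 1 read-through transcript that also shares 314 exonic bases with *Ctbp2*. *Ctbp2*, on the same strand, was at 69.5 CPM with vehicle and 63.7 CPM with TGF-β1. Its log2 fold change was -0.13 (adjusted p = 0.00135 by edgeR). The part of the shared bases in the difference was not tested. The level of *Fgfr2* was 284, 279, 278 and 277 CPM in the vehicle cultures. In the TGF-β1 cultures it was 183, 172, 174 and 170 CPM. No culture of either group came within 94.0 CPM of the other group. The log2 fold change was -0.68 (SE 0.02, 95% interval -0.73 to -0.63, adjusted p = 5.98e-26 by edgeR). Per length it was the second most abundant receptor in both groups. Counts per gene do not separate its epithelial from its mesenchymal splice form, so which form fell is not known from these data.

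*Fgfr3*, a receptor known as a brake on bone growth and expressed by glia in the brain, lies on chromosome 5 from 33721674 to 33737068. It was low, at 6.23, 4.98, 4.67 and 6.04 CPM with vehicle and at 4.89, 3.85, 4.26 and 3.83 CPM with TGF-β1. It was the only one of the 10 genes whose groups overlapped, since treated replicate 5 was above vehicle replicate 3. Its log2 fold change was -0.38 (SE 0.11, 95% interval -0.60 to -0.16, adjusted p = 0.00337 by edgeR), and leaving out single cultures gave values from -0.46 to -0.31 and an adjusted p of at most 0.0302. *G630022F23Rik*, a gene on the opposite strand, covers 13.9% of the exonic bases of *Fgfr3* but had at most 4 counts in any culture.

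*Fgfrl1*, whose protein binds FGFs but lacks the kinase domain, lies on chromosome 5 from 108692382 to 108706924, and no exonic base overlaps another gene. It was at 8.33, 8.55, 9.09 and 8.36 CPM with vehicle and at 13.8, 15.7, 16.1 and 14.7 CPM with TGF-β1. All treated cultures were at least 4.70 CPM above the vehicle cultures. Its log2 fold change was 0.81 (SE 0.07, 95% interval 0.68 to 0.95, adjusted p = 6.06e-14 by edgeR). Of the receptor genes it had the largest rise.

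Receptor makeup was then compared, because shares within a library need no scaling between libraries. Counts were divided by exonic length, and the share of each receptor was taken over *Fgfr1*, *Fgfr2*, *Fgfr3* and *Fgfr4*. *Fgfr1* made up 70.0% ± 0.437 of the receptor total with vehicle and 81.6% ± 0.614 with TGF-β1 (SD, n = 4 each). The share of *Fgfr2* went the other way, from 28.8% ± 0.312 to 17.7% ± 0.554. *Fgfr3* and *Fgfr4* each held little in either group, at 0.816% and 0.314% with vehicle and 0.613% and 0.174% with TGF-β1. The *Fgfr4* share did not overlap between groups (adjusted p = 0.0381 by exact permutation test). That of *Fgfr3* did, with an adjusted p of 0.0571 by the same test. The *Fgfr1* and *Fgfr2* shares did not overlap between groups (p = 0.0286 in a two-sided exact permutation test, which is as small as 4 cultures against 4 can give, and 0.0381 adjusted over 4 shares). This follows from the levels above, since *Fgfr1* was higher and *Fgfr2* lower in every treated culture. These tests therefore restate the changes of both genes and add no separate result. The ratio of *Fgfr1* to *Fgfr2* per length was 2.37 to 2.46 in the vehicle cultures and 4.38 to 4.80 in the TGF-β1 cultures. Shares and ratio depend on the length used. With the longest transcript, *Fgfr1* and *Fgfr2* were at 129 and 63.1 CPM per kilobase with vehicle and at 153 and 39.5 with TGF-β1. The *Fgfr1* share then rose by 12.5 percentage points in place of 11.5.

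Among the 6 ligands, *Fgf7* dominated, with 86.6% ± 0.297 of the length-scaled total in vehicle cultures and 78.0% ± 0.777 in TGF-β1 cultures (SD, n = 4 each). *Fgf2* took 4.53% ± 0.456 and 12.8% ± 0.853. *Fgf18* was the next ligand, at 6.49% ± 0.590 and 6.44% ± 0.424. Thus *Fgf18* was above *Fgf2* in share with vehicle and below it with TGF-β1. The shares of *Fgf7* and of *Fgf2* did not overlap between groups (exact permutation test, two-sided, p = 0.0286), but adjusted over 6 shares the p was 0.0857, above the threshold. Without the correction for length the share of *Fgf2* differed by 15.0 percentage points in place of 8.32, and that of *Fgf7* by -14.5 in place of -8.57.

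**Figure D3:**
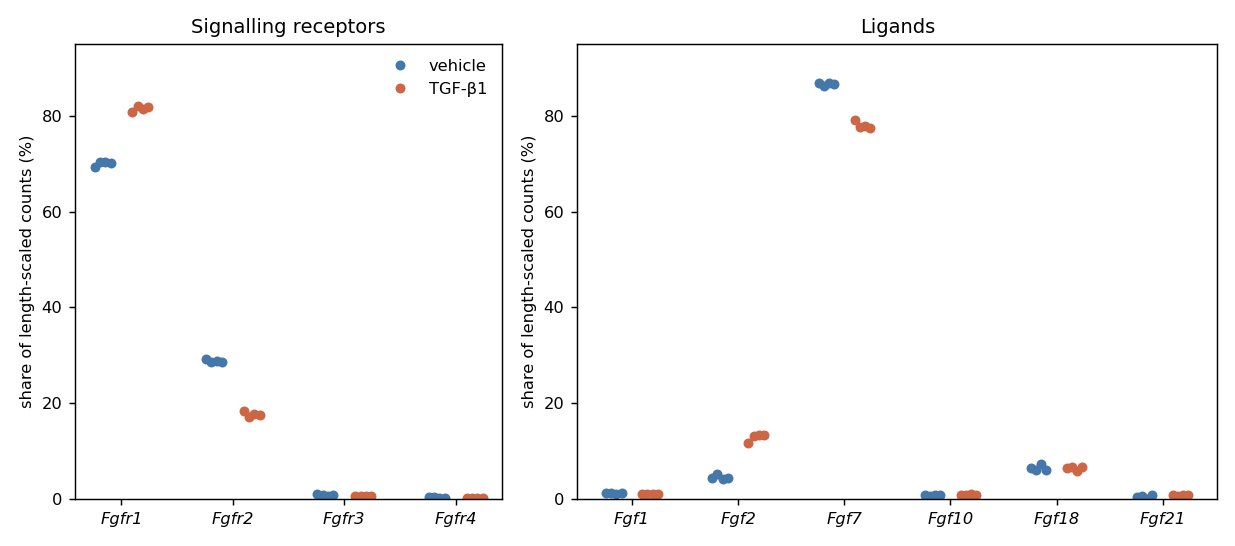
Share of each signaling receptor (left) and each ligand (right) in the summed length-scaled counts of its class, in percent (y axis), 1 dot per culture, vehicle in blue and TGF-β1 in orange. *Fgfr1* and *Fgf2* take a larger share in the TGF-β1 cultures, *Fgfr2* and *Fgf7* a smaller one, although the level of *Fgf7* itself rose. By exact permutation test the adjusted p was 0.0381 for the shares of *Fgfr1*, *Fgfr2* and *Fgfr4*. It was 0.0857, above the threshold, for those of *Fgf2* and *Fgf7*.

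Ordered by level per kilobase of exon, the vehicle cultures had *Fgfr1* at 65.7 CPM per kilobase, *Fgf7* at 32.3 and *Fgfr2* at 27.1, far above *Fgfrl1* at 3.09, *Fgf18* at 2.42 and *Fgf2* at 1.68. *Fgfr3* (0.766), *Fgf1* (0.438), *Fgf10* (0.273) and *Fgf21* (0.172) were lowest, and only *Fgf10* and *Fgf21* overlapped in their ranges. In the TGF-β1 cultures *Fgf2*, at 6.74 CPM per kilobase, had moved from the sixth to the fourth place, above *Fgfrl1* at 5.42 and *Fgf18* at 3.38. *Fgf1*, *Fgf10* and *Fgf21* were there at 0.525, 0.457 and 0.416, with ranges that overlapped between neighbors. The order of *Fgf7* and *Fgfr2* depended on the length used. With the longest annotated transcript in place of all exons, *Fgfr2* was above *Fgf7* in the vehicle cultures (63.1 against 39.2 CPM per kilobase) and below it in the TGF-β1 cultures (39.5 against 49.7).

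**Figure D4:**
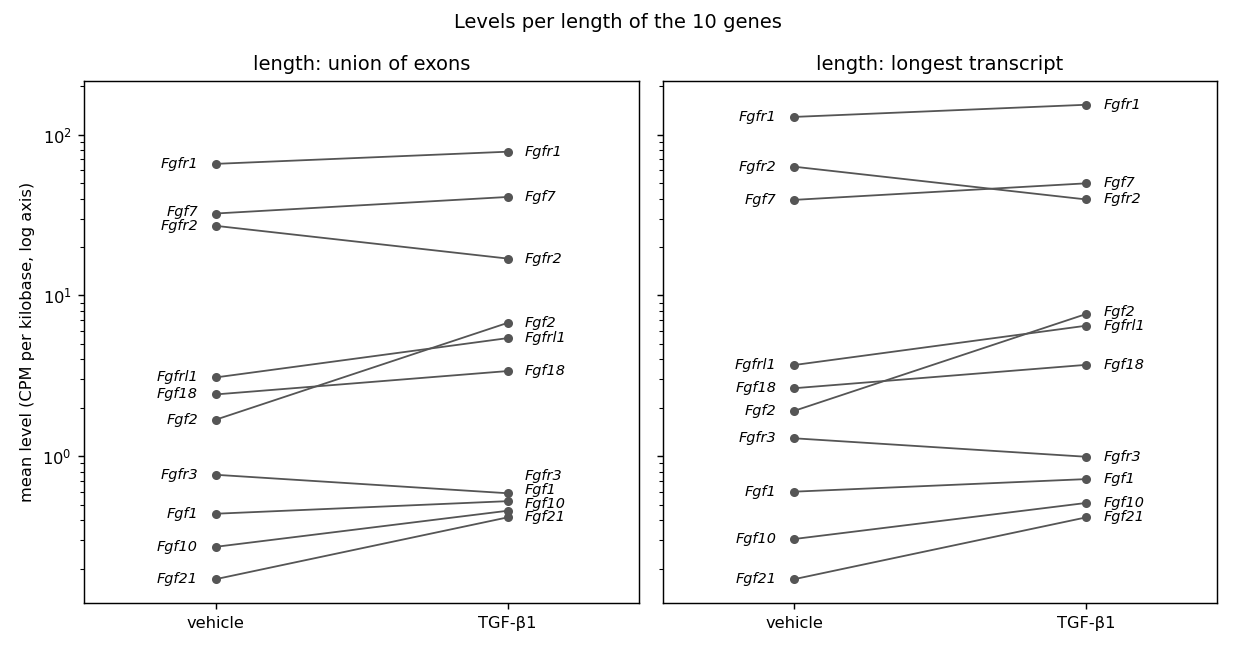
Mean level per kilobase of the 10 genes (y axis, log scale) in vehicle and TGF-β1 cultures, with length taken as all annotated exons (left) or the longest transcript (right). In both panels the line of *Fgf2* crosses those of *Fgfrl1* and *Fgf18* (with the longest transcript its range still overlaps that of *Fgfrl1* in the TGF-β1 cultures), and those of *Fgf7* and *Fgfr2* cross only with the longest transcript.

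Of the 27 FGF and FGF receptor genes in the files, 16 were tested. The 11 that were not had at most 12 counts in any culture and group means of at most 0.141 CPM. Of the other 6 tested, *Fgfr4* fell from 1.04 ± 0.237 to 0.592 ± 0.170 CPM (SD, n = 4 each), a log2 fold change of -0.82 (adjusted p = 0.00604 by edgeR). *Fgf14*, an intracellular FGF homologous factor that binds sodium channels and not FGF receptors, rose from 20.5 ± 1.89 to 23.2 ± 0.932 CPM, a log2 fold change of 0.18 (adjusted p = 0.00761), although its groups overlapped and the adjusted p was 0.0599 without vehicle replicate 4. *Fgf11* (log2 fold change -0.20), *Fgf13* (-0.07), *Fgf17* (-0.34) and *Fgf22* (0.21) did not pass the test.

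Genes that help FGFs to bind moved in both directions. Of 18 co-receptor and carrier genes tested, 7 were higher and 6 were lower, with a median log2 fold change of -0.14, against 20.9% higher and 20.3% lower among all genes tested. Among these, *Gpc3*, a heparan sulfate proteoglycan of the glypican family, fell from 22.0 ± 0.777 to 4.55 ± 0.263 CPM (log2 fold change -2.27), while *Gpc1*, of the same family, rose from 92.7 ± 4.68 to 305 ± 15.3 CPM (1.72). The FGF receptor-binding membrane protein gene *Flrt3* fell by 1.49 on the log2 scale, whereas *Flrt2* rose by 0.79. The syndecan gene *Sdc3* rose by 1.02 (values of each group are means ± SD, n = 4, and each of these 5 genes had an adjusted p under 0.05 by edgeR).

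Of 13 genes of heparan sulfate synthesis and editing, 12 were tested and all of those were called, 9 higher and 3 lower, with a median log2 fold change of 0.25, where 41.3% of all genes tested were called. By level the 12 lay from the 56.9th to the 98.65th percentile of genes tested, and the share called among genes of like level was not computed. Some called changes were small, such as that of *Ext2* (-0.09), named after its value was seen. *Sulf1*, an extracellular sulfatase that removes 6-O-sulfates which FGF complexes use, rose from 18.1 ± 0.787 to 45.8 ± 2.7 CPM (log2 fold change 1.34, adjusted p = 5.84e-27 by edgeR). *Sulf2*, of the same family, fell from 416 ± 6.84 to 345 ± 7.97 CPM (-0.27) and is named here after its value was seen. *Ext1*, a chain polymerase, rose by 0.82, the sulfotransferase genes *Hs6st2* and *Hs3st1* rose by 0.69 and 0.67, and *Ndst1* rose by 0.41 on the log2 scale.

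Transducers just below the receptors differed by small amounts. Of 21 tested, 6 were higher and 5 were lower, a share called of 52.4% that is near the 41.3% over all genes tested. The median log2 fold change was -0.01, and all values lay between -0.48 and 0.40. *Mapk3*, which encodes ERK1, fell most, from 253 ± 2.53 to 182 ± 6.15 CPM (SD, n = 4 each, adjusted p = 1.71e-20 by edgeR). *Map2k1*, which encodes the ERK kinase MEK1, rose from 85.2 ± 0.746 to 113 ± 1.10 CPM (log2 fold change 0.40). *Cbl*, a ubiquitin ligase that acts on activated receptors, rose by 0.36, and the Ras gene *Hras* rose by 0.24. The adaptor gene *Frs2* was at 173 ± 2.88 and 177 ± 1.93 CPM (adjusted p = 0.243).

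Of 19 tested genes known to respond to FGF and ERK signals, 13 were higher and 4 were lower, with a median log2 fold change of 0.41, beside 20.9% higher and 20.3% lower over all genes tested. By level the 19 lay from the 50.65th to the 98.98th percentile of genes tested. The share called among genes of like level was not computed. *Etv4*, an ETS factor downstream of FGF receptors, rose from 9.33 ± 0.947 to 30.7 ± 2.78 CPM (SD, n = 4 each, log2 fold change 1.72, adjusted p = 3.67e-20 by edgeR). The ERK phosphatase genes *Dusp4* and *Dusp6* rose by 1.29 and 0.69, and the immediate early genes *Egr1* and *Fos* by 0.69 and 0.66. The genes that fell were *Etv1* (-0.50), *Spry2* (-0.28), *Il17rd* (-0.27) and *Spry1* (-0.21), named after their values were seen. Of these Sprouty and receptor antagonist genes, *Spry1* and *Il17rd* were near the threshold (adjusted p = 0.0231 and 0.0489), and the count of falls dropped to 2 without vehicle replicate 1, without vehicle replicate 2 or without TGF-β1 replicate 5. The other Sprouty gene tested, *Spry4*, rose by 0.26 (adjusted p = 0.000416 by edgeR) and is also named after its value was seen. ERK also responds to inputs other than FGF, and the list does not tell them apart.

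**Figure D5:**
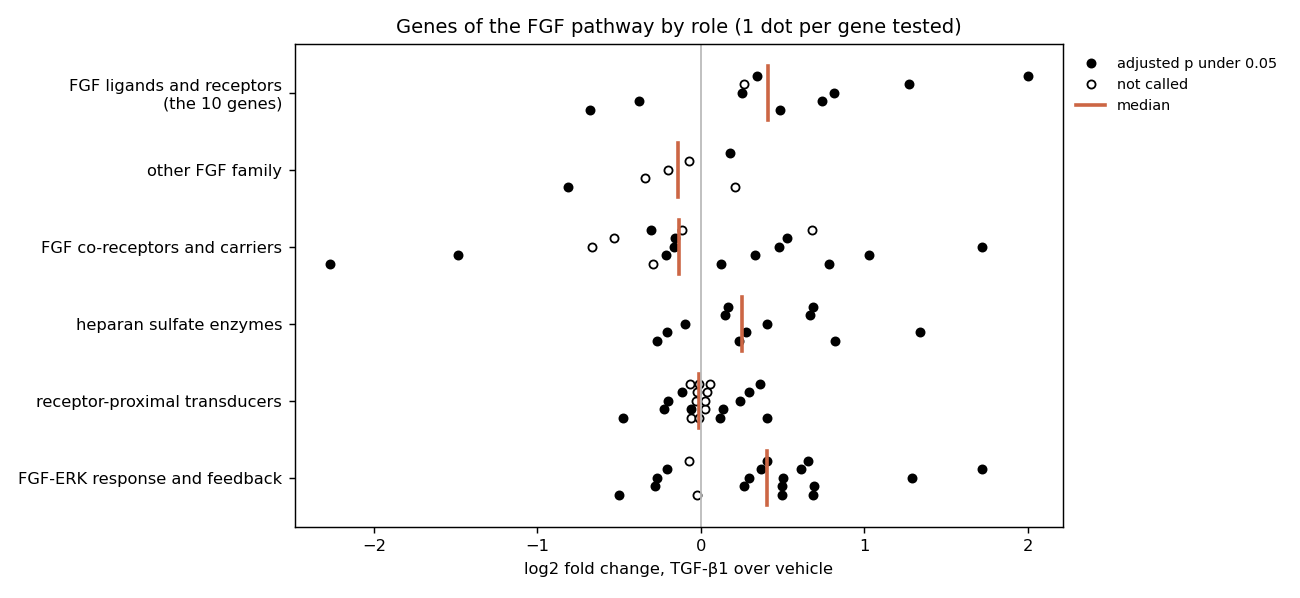
Log2 fold change (x axis, TGF-β1 over vehicle) of each tested gene of the FGF pathway, grouped by role on the y axis, with filled dots for an adjusted p under 0.05, open dots for genes not called and an orange bar at each median. The medians are 0.41 for the 10 ligands and receptors (with *Fgf21*, which passed the filter through the TGF-β1 cultures alone), -0.01 for the transducers and 0.41 for the response and feedback genes.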

How the data were processed

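RNA from 8 pericyte cultures was sequenced after a stranded total RNA preparation. Alignment to mm10 was done by the authors with STAR 2.7.5c (2-pass mode). PCR duplicates were dropped with samtools 1.15, and featureCounts 2.0.3 counted the remaining reads of each gene. They deposited raw counts per Ensembl gene, 1 library per culture. The annotation release, the strand setting and the handling of multi-mapping reads are not given in the sources used here.

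Symbols matched 54409 of the 54532 identifiers, and positions and lengths came from GENCODE M21 (GRCm38). The counts were fitted with edgeR 4.0.16 in R 4.3.3 (filterByExpr, TMM, robust quasi-likelihood test, Benjamini-Hochberg adjustment over 22544 genes, threshold 0.05). The standard error was the log2 fold change divided by the square root of F. Shares were compared with exact permutation tests. The code was tested on simulated data. Alternatives were DESeq2 1.42.0, other scalings and filters, halved counts and each culture left out.

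The genes, lists and tests were chosen with earlier results of these data known. The naming rule covers the 10 genes, the other tested family members and, per pathway list, up to 5 called genes with the largest absolute change and a mean of at least 1 CPM. A gene that falls under the rule is not reported here. Other named genes are markers, overlap a member or are said to have been chosen afterward. *Klb* and *Frs2* were also chosen in this way. Within groups, pairs of libraries differed by more than sampling noise (chi-square per degree of freedom 2.25 to 3.93, or 1.14 to 2.11 with counts halved). The qPCR, imaging and human data were not analysed here.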

Additional observations from a re-analysis of the deposited data

Results flagged for a closer look

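Of 94 groups of 4 values examined (the named genes, library totals and shares), 4 had a culture far from the other 3 of its group, where chance at 1 in 20 gives 4.7. For *Fgf2*, TGF-β1 replicate 5 had 40.1 CPM and the nearest culture 47.0 CPM. *Fgf7* was at 101.1 CPM in vehicle replicate 2 against 105.9 CPM, and its share of the ligands there was 86.2% against 86.7%. The share of *Fgfr1* among the receptors was 69.4% in vehicle replicate 1 against 70.2%.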

How the results depend on the processing

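The 9 calls among the 10 genes kept their direction and their side of the threshold under DESeq2, the other scalings, the filters and halved counts wherever the gene was tested. *Fgf21* was not tested with at least 10 counts in every culture or with halved counts. With each culture left out, 8 or 9 genes were called, and the log2 fold change of *Fgf21* ranged from 0.86 (without vehicle replicate 3, adjusted p = 0.0948) to 1.59 (without vehicle replicate 4). The number past an absolute log2 fold change of 1.5 was 1 or 2, the second being *Fgf21* without vehicle replicate 4. The other family genes called higher ranged from 0 to 1, and the response genes called lower from 2 to 4. Over all genes, 452 passed both thresholds, and 285 did when each culture had to hold at least 10 counts, which leaves fewer genes to test. With the longest transcript as length, an alternative added after the data were seen, the log2 ratio of *Fgf7* to *Fgfr2* per kilobase was -0.69 with vehicle, against 0.25 with all exons. Exact tests of shares could not reach 0.05 with 3 cultures against 4, whose smallest p is 0.0571. No paired analysis was possible because the labels number the vehicle cultures 1 to 4 and the treated ones 5 to 8. Genes at few counts, such as *Fgf21*, are limited by depth.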
